A study of Homo sapiens with 6 samples.

Results

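The 39 genes described here are interferon regulatory factors, their STAT partner STAT2, interferon-induced effectors and sensors of foreign nucleic acid. They were found by gene symbol, from a list drawn up with earlier results of these data known, and all 39 were found among the 19903 genes of each table. RNA was sequenced from human lung cancer cell lines at passage 5 that carried either a vector for malin, the E3 ubiquitin ligase encoded by NHLRC1, or an empty vector. A549 and H1299 are common laboratory lines of non-small-cell lung cancer, and the remaining 2 libraries carry the label H2030, another lung adenocarcinoma line. Each line gave 1 malin library and 1 empty-vector library, so the 6 libraries form 3 pairs and no line has a replicate of either vector. The sources used here do not say whether the cultures were clones or pools, or which promoter drove malin. No interferon or virus is named in the labels, so the levels are those of unstimulated cultures as far as the labels say.

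Type I interferons bind the IFNAR receptor, and the kinases JAK1 and TYK2 then phosphorylate STAT proteins, STAT2 among them. STAT2 joins IRF9 in the factor ISGF3, which binds the interferon-stimulated response element in the promoters of antiviral genes. Cells also transcribe many of these genes at a low tonic level without added interferon, and sensors of RNA (RIG-I and MDA5) and of DNA (cGAS, which signals through STING) can start new interferon production by way of IRF3 and IRF7.

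As a check of the labels, NHLRC1 had 6.82 FPKM with malin and 1.21 with empty vector in A549. It had 119.2 and 2.85 FPKM in H1299, and 3.69 and 0.18 FPKM in the H2030-labelled libraries, so it was higher with malin each time. FPKM is a fragment number scaled to transcript length and library total, and the deposited tables are in this unit. In the H2030-labelled malin table the header of the values instead gives a short form of HEK293T, a line from embryonic kidney, so that pair is called H2030-labelled throughout. CDKN2A, which A549 is known to have lost, was at 0 and 0.09 FPKM there and at 58.9 to 78.8 FPKM elsewhere. Of 7 immune cell markers in the tables, 0 or 1 reached 1 FPKM in any library, and their summed level was 1.17 to 3.15 FPKM. PTPRC, which marks white blood cells, was at most 0.07 FPKM. The 5 epithelial markers summed to 158.6 to 2615 FPKM, most of it from KRT8 and KRT18. Of these 5 markers, 4 or 5 reached 1 FPKM in the A549 libraries and 4 in the H2030-labelled pair, but only 2 in H1299. In H1299 EPCAM, CDH1 and KRT19 were at most 0.19, 0.02 and 0.07 FPKM. Of the 3 lung lineage markers at most 2 reached 1 FPKM in any library. Library depth, estimated from the spacing of low values, was 8300000 to 10700000 fragments, so 1 fragment on a transcript of 2000 bases corresponds to about 0.049 to 0.063 FPKM.

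Between 23 and 25 of the 39 reached 1 FPKM in each library, 18 reached it in all 6 libraries, and 8 stayed under it in all 6. Their median was 3.89 and 3.64 FPKM in A549 with malin and empty vector, 4.49 in both H1299 libraries, and 2.5 and 2.12 FPKM in the H2030-labelled pair with malin and empty vector. The 28 members that passed the filter on low values, a mean of at least 1 FPKM over the 6 libraries, had medians of 3.36 to 7.10 FPKM per library. The median of all 12182 protein-coding genes past the same filter was 10.45 to 12.52 FPKM. IRF5, IRF8, OAS1 and IFITM1 passed only through the line where they were high (mean under 1 FPKM over the other 4 libraries), so their line differences are given as levels, with no p. The 11 members under the filter had at most 2.81 FPKM in any library.

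**Figure D1:**
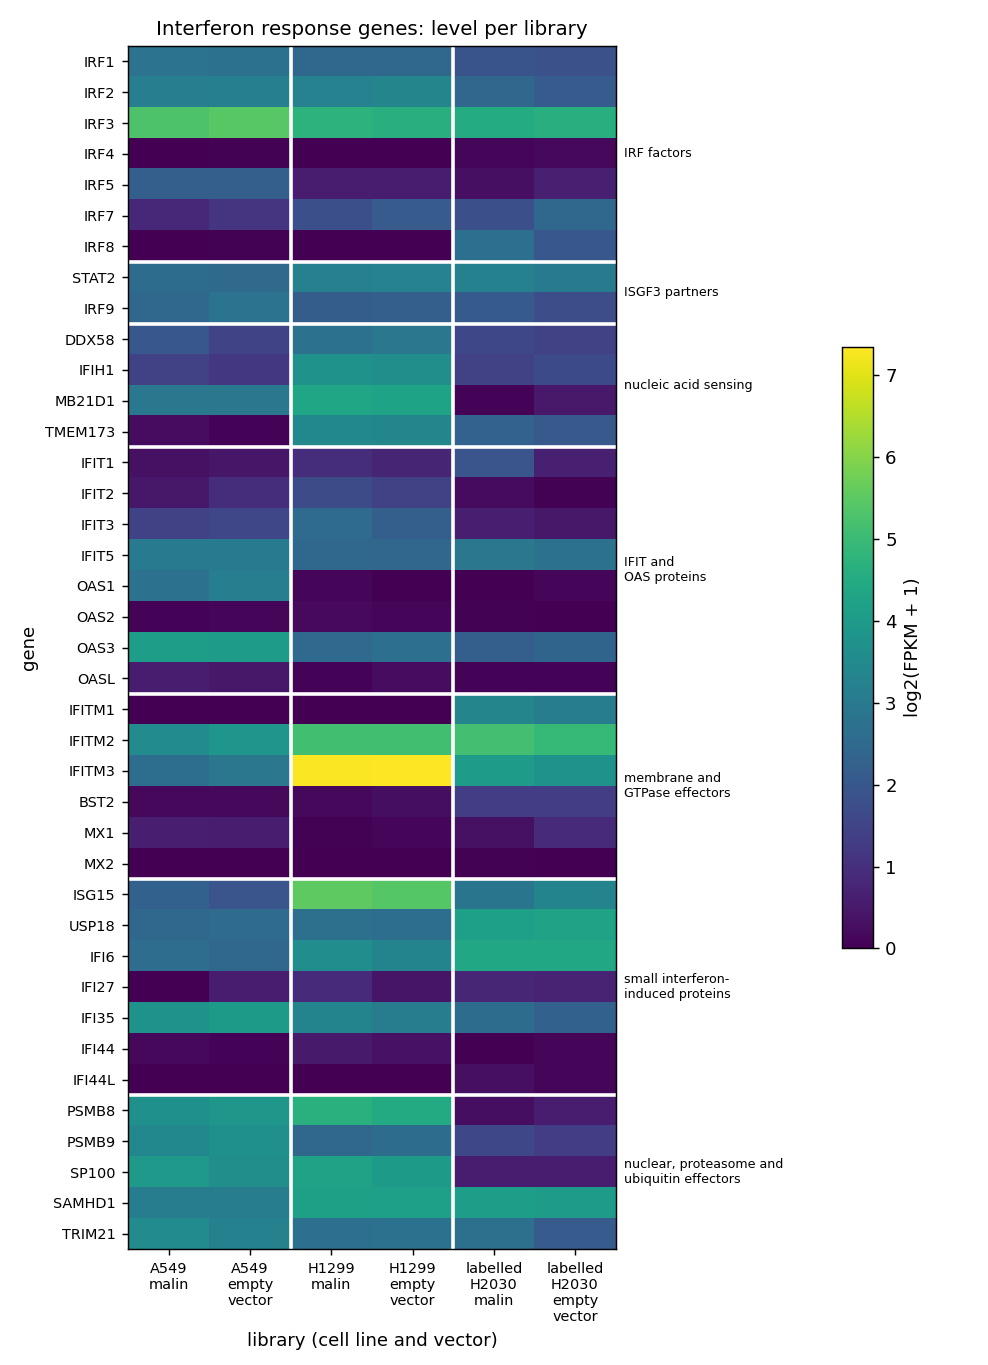
Level of each of the 39 genes (rows, grouped by role) in the 6 libraries (columns, malin left of empty vector within each line), as log2(FPKM + 1) in colour. IFITM3 and ISG15 stand out in both H1299 libraries, whereas IFITM1 and IRF8 have a level above 1 FPKM only in the H2030-labelled libraries.

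Promoters of many of these genes hold letters known from the interferon response. As members were chosen for their part in that response, the shares below are a description and not a test. The RefSeq promoter table for GRCh38.p14 spans 250 bases before to 50 after a gene's start, and it holds 28 of the 39 members. Of these 28, 16 (57.1%) had at least 1 match to the core of the interferon-stimulated response element, which is GAAA, any 2 bases and GAAA, read on either strand (TTTC, any 2 bases and TTTC on the other). The same core was in the promoters of 659 of 15842 protein-coding genes (4.16%). The gamma-activated site TTCNNNGAA, which reads the same on both strands and belongs to the interferon gamma response, was matched in 9 of the 28 (32.1%) and in 8.98% of protein-coding genes. Cores can overlap each other and a gamma-activated site. A match is a string of letters and not a measured binding site. Windows of at most 30 bases around 1 core each are shown for members whose levels are described below, with the core in capitals and each sequence read 5′ to 3′ along the strand of its gene.
ISG15, chr1:1013380-1013409, plus strand: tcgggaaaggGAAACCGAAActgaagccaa
IFI6, chr1:27672266-27672295, minus strand: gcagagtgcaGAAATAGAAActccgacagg
IFIT1, chr10:89392510-89392539, plus strand: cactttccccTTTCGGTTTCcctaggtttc
IFIT5, chr10:89414513-89414542, plus strand: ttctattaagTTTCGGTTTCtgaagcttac
IFITM3, chr11:320876-320905, minus strand: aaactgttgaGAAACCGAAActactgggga
IFITM1, chr11:314024-314053, plus strand: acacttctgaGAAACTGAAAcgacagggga
OAS3, chr12:112938321-112938350, plus strand: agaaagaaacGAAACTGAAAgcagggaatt
IFIH1, chr2:162318686-162318715, minus strand: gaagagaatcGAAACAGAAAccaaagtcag

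Carrying a core did not go with one level. The 16 members with a core had a median of 1.68 and 1.63 FPKM in A549 with malin and empty vector, 4.62 and 4.07 FPKM in H1299, and 2.24 and 1.81 FPKM in the H2030-labelled pair. In each library 9 or 10 of the 16 reached 1 FPKM. The 12 members with a listed promoter and no core had medians of 5.37 and 5.81 FPKM in A549, 4.49 and 4.78 FPKM in H1299, and 2.39 and 2.04 FPKM in the H2030-labelled pair.

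Lines were compared in a fit of all 12182 genes that also held a vector term, so that the spread is the one between the libraries of a line once the mean effect of the vector is removed. It is not a spread between independent cultures of one kind. A549 was higher than H1299 in 8 of the 28 tested members and lower in 13 (limma, Benjamini-Hochberg adjusted p under 0.05). Over all genes tested 27.2% were higher and 34.5% lower, so most genes pass in such a comparison of lines. A549 was higher than the H2030-labelled pair in 14 members, where 22.1% of all genes were, and lower in 11, where 45% of all genes were. H1299 was higher than that pair in 13 members, where 23.8% of all genes were, and lower in 5, where 40.9% of all genes were. These counts include the 4 members that passed the filter through 1 line. Without such genes, a split chosen after the values were seen, the members called were 6 higher and 13 lower for A549 over H1299 (25% and 54.2% of 24, against 27% and 34.8% of 11056 genes). They were 12 higher and 9 lower for A549 over labelled H2030 (50% and 37.5%, against 21.9% and 43.3% of genes), and 13 higher and 3 lower for H1299 over labelled H2030 (54.2% and 12.5%, against 24.3% and 38.9% of genes). As shares of all 28, the counts are 28.6% higher and 46.4% lower for A549 over H1299, 50% and 39.3% for A549 over labelled H2030, and 46.4% and 17.9% for H1299 over labelled H2030.

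The median difference over all genes was not 0 in these comparisons. It was -0.09 for A549 minus H1299, -0.29 for A549 minus labelled H2030 and -0.22 for H1299 minus labelled H2030 on the log2(FPKM+1) scale. Median-of-ratios scaling brought these to -0.0045, 0.02 and -0.0035. With that scaling the members called were 9 higher and 13 lower, 15 higher and 10 lower, and 15 higher and 4 lower for the same 3 comparisons, of 28 tested. Of all genes 31.1% were then higher and 30.8% lower, 33.6% and 30.9%, and 31.6% each way. Among all genes it moved the share of higher calls from 32.9% to 52.1% for A549 over labelled H2030 and from 36.8% to 50% for H1299 over that pair. The median difference of the 28 members was -0.25 for A549 minus H1299, 0.48 for A549 minus labelled H2030 and 0.30 for H1299 minus labelled H2030 on deposited FPKM. The counts and medians of this paragraph include the 4 members, and the 1126 genes among the 12182, that passed the filter through 1 line. The scaled counts and the member medians were not repeated without them.

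The line with a member's highest mean level was A549 for 10 of the 28 members, H1299 for 13 and the H2030-labelled pair for 5. Of all 12182 genes, 23.8% were highest in A549, 28.4% in H1299 and 47.8% in the H2030-labelled pair. IRF5 and OAS1 count for A549 here, and IRF8 and IFITM1 for the H2030-labelled pair. Each of these 4 passed the filter only through that line, so its highest line and wide line distance follow from the filter. They are kept in the counts and medians of this paragraph, as are 1126 such genes among the 12182. The distance between the highest and lowest line mean was a median of 1.75 on the log2(FPKM+1) scale. The largest difference between vectors in any line was a median of 0.30, and it was below the line distance for each of the 28 tested members. The same held for 90.7% of all 12182 genes, with medians of 0.99 between lines and 0.27 between vectors.

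**Figure D2:**
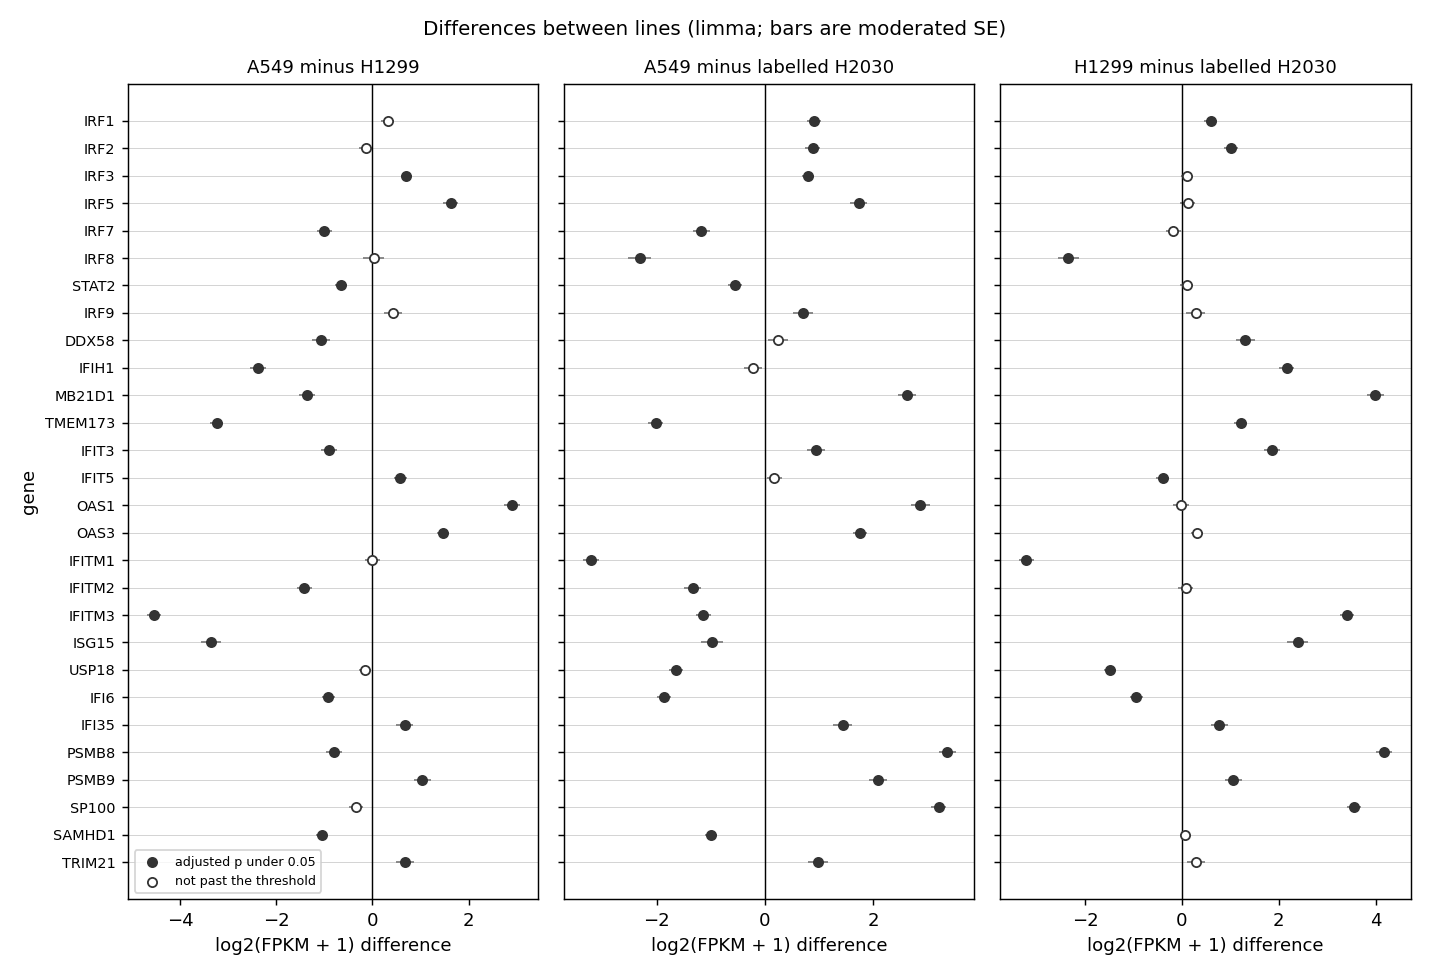
Difference between lines for the 28 tested members (rows), as log2(FPKM + 1), with the moderated SE of limma as bars. Filled points passed an adjusted p of 0.05, and IRF5, IRF8, OAS1 and IFITM1 entered through 1 line only. IFITM3 and ISG15 lie farthest to the left for A549 minus H1299, at -4.55 and -3.36, and PSMB8 farthest to the right for H1299 minus labelled H2030, at 4.18.

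Among the interferon regulatory factors, IRF3 was the most abundant in every line and IRF4 was close to absent. IRF3, which is present before infection and is activated by phosphorylation, was at 38.6 FPKM with malin and 42.5 FPKM with empty vector in A549. It was at 25.7 and 23.4 FPKM in H1299 and at 21.85 and 23.99 FPKM in the H2030-labelled pair, with malin and empty vector. Both A549 libraries lay above the other 4, and the difference was 0.70 ± 0.11 over H1299 (SE, limma adjusted p = 0.00289) and 0.80 ± 0.11 over labelled H2030 (SE, limma adjusted p = 0.00143). H1299 and the H2030-labelled pair overlapped in IRF3. Without strand information these IRF3 values are uncertain, as 19.35% of its exon bases lie opposite BCL2L12.

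IRF1, which responds to interferon gamma, ranged from 5.71 to 5.96 FPKM in A549, was 4.49 in both H1299 libraries, and ranged from 2.55 to 2.74 in the H2030-labelled pair. IRF2, its frequent antagonist, was lowest in the same pair, at 3.42 and 4.34 FPKM against 7.89 to 9.08 FPKM in the other lines. IRF5, a factor best known from myeloid cells, was at 3.63 and 3.64 FPKM in A549 and at 0.57 FPKM or less in the other 4 libraries. IRF4, which acts in lymphocytes, was at most 0.12 FPKM anywhere. The IRF1 values are uncertain without strand information, as up to 28% of its exon bases lie opposite C5orf56 and AC116366.3.

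IRF8 and IRF7 were not highest in A549. IRF8, known from myeloid and B cells, was at 5.43 FPKM with malin and 3.02 FPKM with empty vector in the H2030-labelled pair. Every A549 and H1299 library had at most 0.04 FPKM, and 3 of those 4 were listed at 0, so no fold is given. IRF7, the factor that amplifies interferon production and is itself induced by interferon, was at 0.75 and 1.15 FPKM in A549 with malin and empty vector. It was at 2.48 and 3.32 FPKM in H1299 and at 2.5 and 4.5 FPKM in the H2030-labelled pair with the same vectors. A549 thus held the lowest IRF7 levels. The log2 difference was -0.999 ± 0.16 for A549 minus H1299 (SE, limma adjusted p = 0.00254) and -1.18 ± 0.16 for A549 minus labelled H2030 (SE, limma adjusted p = 0.00108). H1299 and the H2030-labelled pair overlapped in IRF7.

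The other subunits of ISGF3 were present throughout and varied little. STAT2 was at 4.84 to 5.01 FPKM in A549, 8.13 to 8.54 in H1299 and 7.09 to 8.34 in the H2030-labelled pair. It was lower in A549 than in H1299 (log2 difference -0.66 ± 0.13 SE, limma adjusted p = 0.0071). It was also lower in A549 than in labelled H2030 (-0.55 ± 0.13 SE, limma adjusted p = 0.012), a call that was lost with median-of-ratios scaling (limma adjusted p = 0.158). IRF9 ranged from 2.35 to 5.90 FPKM over the 6 libraries and passed for A549 over labelled H2030 (0.71 ± 0.19 SE, limma adjusted p = 0.0175). Its value is uncertain, because 48.4% of its exon bases in GENCODE release 29 also belong to the readthrough gene AL136295.5 of the same strand.

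Each of the 4 nucleic acid sensing genes was highest in H1299, and each passed for H1299 over A549 and over labelled H2030. MB21D1 encodes the DNA sensor cGAS (current symbol CGAS) and TMEM173 its adaptor STING (STING1). MB21D1 was at 6.64 to 6.66 FPKM in A549, 18.1 to 19.2 in H1299 and 0.06 to 0.43 in the H2030-labelled pair. The log2 difference of A549 over labelled H2030 was 2.64 ± 0.17 (SE, limma adjusted p = 7.7e-05) and that of H1299 over labelled H2030 was 3.996 ± 0.17 (SE, limma adjusted p = 2.6e-05). TMEM173 had another order, with 0.05 to 0.19 FPKM in A549, 9.28 to 9.80 in H1299 and 3.14 to 3.98 in the H2030-labelled pair. The log2 difference was -3.24 ± 0.14 for A549 minus H1299 (SE, limma adjusted p = 2.5e-05) and -2.02 ± 0.14 for A549 minus labelled H2030 (SE, limma adjusted p = 9.2e-05). The DNA sensor and its adaptor were thus each above 5 FPKM together in H1299 alone.

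The RNA sensors showed a smaller spread. IFIH1, which encodes MDA5, was at 1.29 to 1.69 FPKM in A549, 11.5 to 12.4 in H1299 and 1.67 to 2.12 in the H2030-labelled pair. DDX58, which encodes RIG-I (current symbol RIGI), was at 1.85 to 3.01, 5.67 to 6.54 and 1.73 to 1.99 FPKM in the same order of lines. A549 and the H2030-labelled pair overlapped in both of these genes. For A549 minus H1299 the log2 difference was -2.38 ± 0.16 for IFIH1 (SE, limma adjusted p = 0.000125) and -1.07 ± 0.19 for DDX58 (SE, limma adjusted p = 0.00417).

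Genes of the same family that lie side by side had different levels in the same cells. The IFITM genes, which encode small membrane proteins that block virus entry, span 19.9 kb of chromosome 11 (307631 to 327537, hg38, GENCODE release 29). IFITM3 was at 5.33 and 6.46 FPKM in A549 with malin and empty vector, at 157 and 162 FPKM in H1299, and at 15.6 and 12.8 FPKM in the H2030-labelled pair. The groups of 2 libraries did not overlap between lines, and A549 minus H1299 was -4.55 ± 0.14 on the log2 scale (SE, limma adjusted p = 1e-05). IFITM2 was at 10.7 and 13.7 FPKM in A549 with malin and empty vector, 34.0 and 33.9 FPKM in H1299, and 34.9 and 29.4 FPKM in the H2030-labelled pair. For IFITM2 A549 minus H1299 was -1.42 ± 0.15 on the log2 scale (SE, limma adjusted p = 0.000609), while H1299 and the H2030-labelled pair overlapped. IFITM1 was listed at 0 in all 4 A549 and H1299 libraries and stood at 9.24 FPKM with malin and 7.45 FPKM with empty vector in the H2030-labelled pair. The core in its printed window spans the gene's start. These values are uncertain, since 32% of the 50-base words of IFITM1 transcripts, 34.1% of those of IFITM2 and 17.4% of those of IFITM3 also occur in transcripts of other genes, chiefly of each other.

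The other membrane and GTPase effectors were low. BST2, which encodes tetherin and holds budding virus at the cell surface, was at 1.5 FPKM in both H2030-labelled libraries and at most 0.21 FPKM in the others. MX1 was at most 0.85 FPKM and MX2 at most 0.04 FPKM. Both encode dynamin-like GTPases and are among the genes most strongly induced by interferon.

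The OAS genes, which encode enzymes that make an oligoadenylate messenger for RNase L, span 104.9 kb of chromosome 12 (112906777 to 113011723). They were highest in A549, apart from OAS2. OAS3 was at 16.1 FPKM with malin and 15.5 FPKM with empty vector in A549, 4.75 and 5.45 FPKM in H1299, and 3.71 and 4.13 FPKM in the H2030-labelled pair. A549 was higher than H1299 by 1.46 ± 0.13 and than labelled H2030 by 1.77 ± 0.13 on the log2 scale (SE, limma adjusted p = 0.000306 and 0.000112). OAS1 was at 5.72 to 7.80 FPKM in A549 and at most 0.09 FPKM in the other 4 libraries, 2 of which listed it at 0. OAS2 lies in the same group of genes and was at most 0.13 FPKM in any library. OASL, which encodes a related protein that lacks the enzyme activity, was at most 0.46 FPKM.

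The IFIT genes, whose products bind foreign RNA, span 137.3 kb of chromosome 10 (89283694 to 89421001). IFIT5 had the smallest spread of them, at 6.96 to 7.34 FPKM in A549, 4.42 to 4.49 in H1299 and 5.83 to 6.60 in the H2030-labelled pair. Its lower level in H1299 than in labelled H2030 (log2 difference -0.40 ± 0.13 SE, limma adjusted p = 0.0379) did not pass after median-of-ratios scaling (limma adjusted p = 0.253). The call was also lost with quantile normalization (limma adjusted p = 0.564), with A549 left out (limma adjusted p = 0.101) and with no filter on low values (limma adjusted p = 0.059). IFIT3 was at 1.67 to 1.97, 3.72 to 4.91 and 0.40 to 0.52 FPKM in the same order. IFIT3 passed in each comparison of lines, with H1299 over labelled H2030 the largest at 1.86 ± 0.17 (SE, limma adjusted p = 0.00025). IFIT2 did not pass the filter on low values and had the same order of lines, at 0.40 to 0.93, 1.74 to 2.23 and 0.04 to 0.15 FPKM. IFIT1, also under the filter, was at 0.25 to 0.37, 0.69 to 0.96 and 0.57 to 2.81 FPKM.

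**Figure D3:**
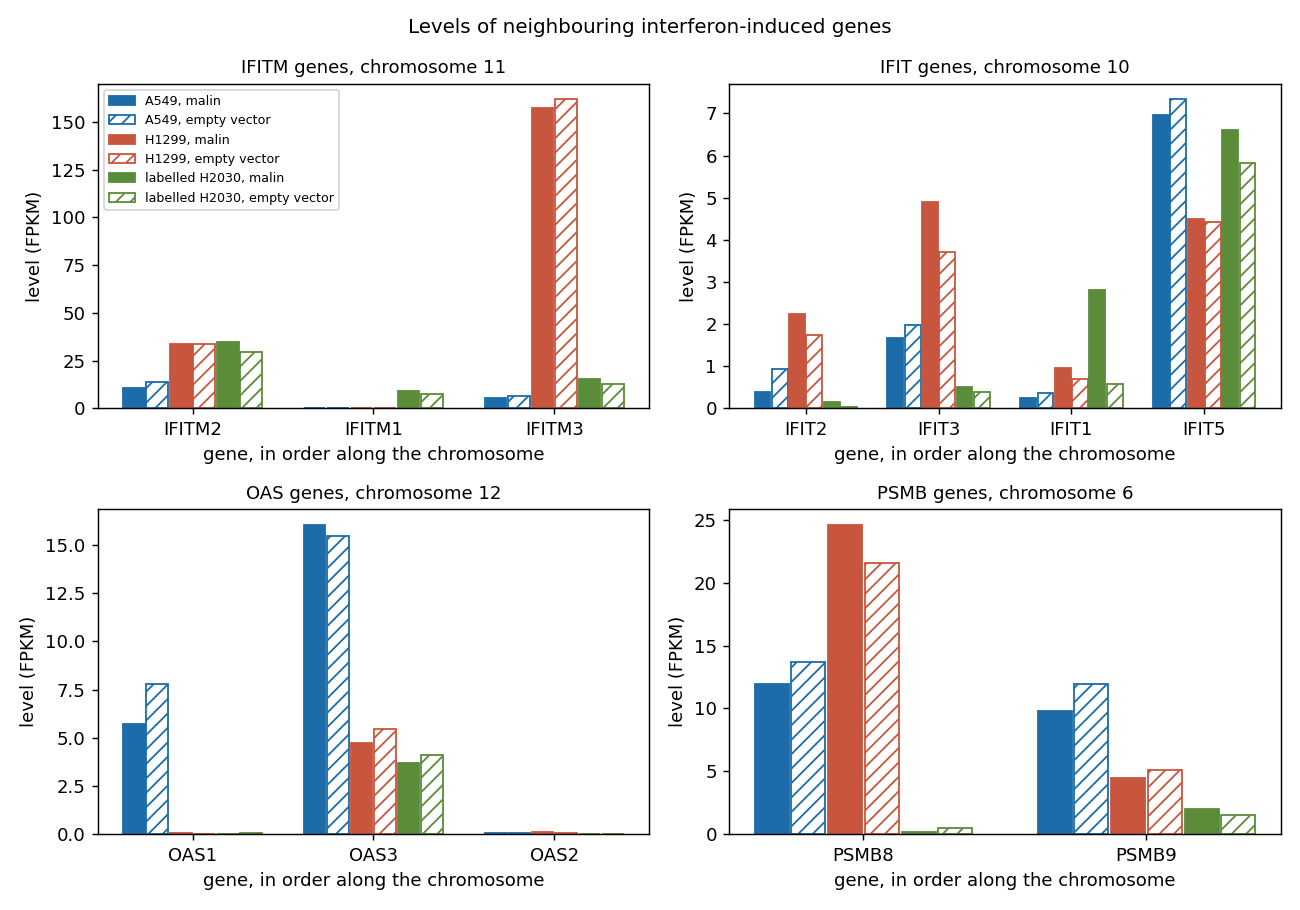
Levels in FPKM of neighbouring genes in the 6 libraries, with filled bars for malin and hatched bars for empty vector (1 library each, so there are no error bars). The genes of each panel are in their order along the chromosome, and each panel has its own scale. IFITM3 reaches 157 and 162 FPKM in H1299, whereas the adjacent IFITM1 is listed at 0 there.

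Among the small interferon-induced proteins, ISG15 was highest in H1299 and IFI6 in the H2030-labelled pair. ISG15, a ubiquitin-like protein that is attached to other proteins, was at 3.89 and 2.80 FPKM in A549 with malin and empty vector, 45.1 and 41.7 FPKM in H1299, and 6.22 and 8.95 FPKM in the H2030-labelled pair. A549 minus H1299 was -3.36 ± 0.21 on the log2 scale (SE, limma adjusted p = 8.8e-05). USP18 encodes the protease that removes ISG15 and that dampens signalling at the type I receptor. It had a different order, at 4.60 to 4.98, 5.35 to 5.6 and 16.6 to 17.6 FPKM in A549, H1299 and labelled H2030. For USP18 H1299 minus labelled H2030 was -1.48 ± 0.12 on the log2 scale (SE, limma adjusted p = 0.000198), though 23.4% of its 50-base words occur in other genes, mainly the near copy USP41.

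IFI6, a mitochondrial protein that counters cell death, was at 5.17 and 4.46 FPKM in A549 with malin and empty vector, 11.2 and 8.90 FPKM in H1299, and 19.9 and 20.3 FPKM in the H2030-labelled pair. Lines did not overlap in IFI6, and A549 minus labelled H2030 was -1.86 ± 0.13 on the log2 scale (SE, limma adjusted p = 0.000104). IFI35 ran the other way, at 12.3 and 15.2 FPKM in A549 with malin and empty vector, 8.86 and 7.66 FPKM in H1299, and 5.02 and 3.85 FPKM in the H2030-labelled pair. A549 was higher in IFI35 than labelled H2030 by 1.44 ± 0.18 (SE, limma adjusted p = 0.000751). IFI27, IFI44 and IFI44L, which interferon induces strongly in many tissues, were at most 0.89, 0.44 and 0.23 FPKM in any library.

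Of the 5 nuclear, proteasome and ubiquitin effectors, 4 had their lowest line mean in the H2030-labelled pair, and SAMHD1 had it in A549. PSMB8 encodes an interferon-induced subunit of the immunoproteasome, which trims peptides for MHC class I. It was at 11.96 to 13.68 FPKM in A549, 21.5 to 24.6 in H1299 and 0.20 to 0.47 in the H2030-labelled pair. PSMB9, its neighbour on chromosome 6, was at 9.83 to 11.9, 4.49 to 5.07 and 1.52 to 2.04 FPKM. PSMB8 was thus higher in H1299 than in A549 and PSMB9 lower. A549 minus H1299 was -0.80 ± 0.16 for PSMB8 (SE, limma adjusted p = 0.00644) and 1.04 ± 0.17 for PSMB9 (SE, limma adjusted p = 0.0031). Without strand information PSMB8 is uncertain, as 25.3% of its exon bases lie opposite PSMB8-AS1 and PSMB9.

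SP100, a component of PML nuclear bodies, was at 11.3 to 14.3 FPKM in A549, 15.2 to 17.7 in H1299 and 0.47 to 0.48 in the H2030-labelled pair. SP100 was higher than labelled H2030 by 3.22 ± 0.14 in A549 and by 3.56 ± 0.14 in H1299 (SE, limma adjusted p = 2.5e-05 and 2.2e-05). SAMHD1, which depletes nucleotides and restricts retroviruses, was at 7.51 to 7.62, 16.6 to 17.0 and 15.7 to 16.4 FPKM. TRIM21, an antibody receptor of the cytosol, was at 8.42 to 10.7, 5.43 to 5.66 and 3.29 to 5.62 FPKM.

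Malin was set against the empty vector across the 3 lines, with the line as the pair. Of the 28 tested members 0 passed an adjusted p of 0.05, as 0% of all 12182 genes did (limma). Before adjustment 1 member, IRF7, and 1.75% of all genes had a limma p under 0.05. Values lay above 0 in all 3 lines for TMEM173 and SAMHD1, 2 of the 28 (7.14%, against 11% of all genes). They lay below 0 in all 3 lines for IRF7, 1 of the 28 (3.57%, against 11.3% of all genes). For the 28 members the median log2 difference was -0.01 (A549), 0.01 (H1299) and 0.10 for the H2030-labelled pair, beside 0, 0.005 and -0.03 over all genes tested. Members were divided in each line, with 12 higher and 15 lower with malin in A549, 16 higher and 9 lower in H1299, and 16 higher and 12 lower in the H2030-labelled pair, the rest being equal.

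**Figure D4:**
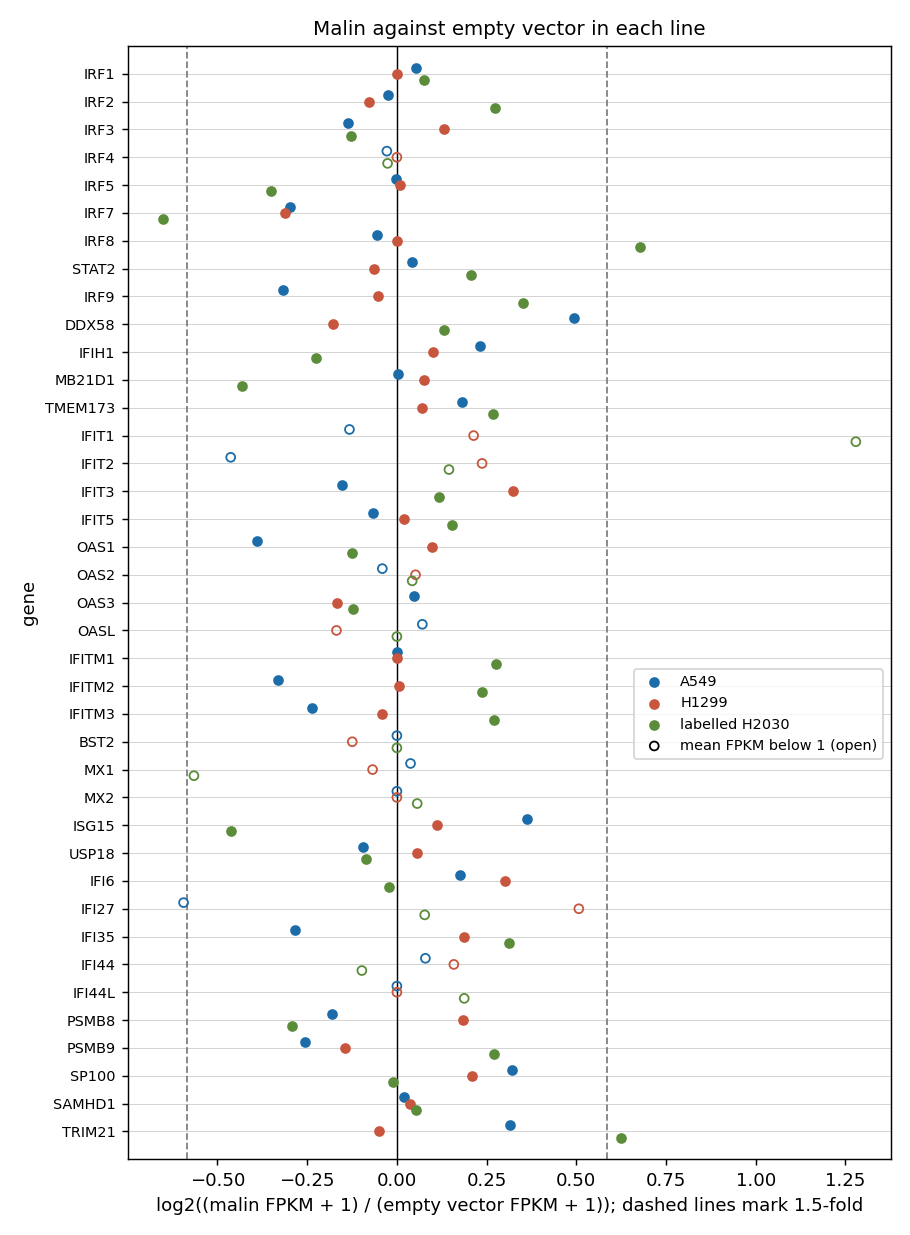
Log2((malin FPKM + 1)/(empty vector FPKM + 1)) of the 39 genes (rows) in each of the 3 lines, with 1 malin and 1 empty-vector library behind each point. Open points are members with a mean below 1 FPKM, and dashed lines mark 1.5-fold. IRF7 lies left of 0 in each line, and the point farthest from 0 is IFIT1 in the H2030-labelled pair, at 1.28.

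Of all the members IRF7 had the lowest unadjusted p. Its malin and empty-vector values given above differed by -0.30 (A549), -0.31 (H1299) and -0.65 for the H2030-labelled pair. The mean was -0.42 ± 0.20 on the log2 scale (SD, n = 3; exact paired permutation test, two-sided p = 0.25, the smallest that 3 pairs allow), and the limma adjusted p was 0.927. Without the H2030-labelled pair the mean was -0.30 (limma adjusted p = 1). IRF7 levels overlapped between malin and empty-vector libraries of different lines only through A549. Its empty-vector library, at 1.15 FPKM, lay below the malin libraries of H1299 and the H2030-labelled pair, at 2.48 and 2.5 FPKM. Those malin values lay below both empty-vector values of H1299 and the H2030-labelled pair, 3.32 and 4.5 FPKM. The counts behind IRF7 were not estimated, because the tables list 3 transcripts for it.

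Within single lines few members reached 1.5-fold on the FPKM+1 scale. In A549 and in H1299 0 of the 28 did in either direction, where 0.55% of all genes were higher and 0.583% lower in A549 and 0.328% higher and 0.148% lower in H1299. In the H2030-labelled pair 2 members were higher, IRF8 and TRIM21 (7.14%, against 4.28% of all genes), and 1 was lower, IRF7 (3.57%, against 7.33%). With a pseudocount of 5 in place of 1, 0 members were higher and 0 lower in that pair, and with a pseudocount of 0.1 5 were lower there, 2 were higher in A549 and 1 was higher in H1299. These counts have no replicate check. They rest on the pair whose value columns carry different line names, and log2 differences over all genes were widest there (SD 0.40, against 0.18 in A549 and 0.16 in H1299). Whether that spread has a part in the 3 members was not tested.

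TRIM21 was at 10.7 FPKM with malin and 8.42 FPKM with empty vector in A549, 5.43 and 5.66 FPKM in H1299, and 5.62 and 3.29 FPKM in the H2030-labelled pair. Malin libraries were higher in 2 of the 3 lines. The plain ratio was 1.71 in the H2030-labelled pair (95% exact binomial interval 1.20 to 2.43) and 1.27 in A549 (interval 1.03 to 1.58), from an estimated 101 and 50 fragments and 205 and 158 fragments with malin and empty vector. For IRF8 in the H2030-labelled pair the ratio was 1.80 (interval 1.37 to 2.43), from an estimated 158 and 73 fragments. These intervals cover counting error only and not the variation between cultures.

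Among the 11 members under the filter, 2 passed 1.5-fold. IFIT1 was at 2.81 FPKM with malin and 0.57 FPKM with empty vector in the H2030-labelled pair, a log2 difference of 1.28 on the FPKM+1 scale. In A549 it was at 0.25 and 0.37 FPKM and in H1299 at 0.96 and 0.69 FPKM. On the FPKM+1 scale, which flattens low values, its neighbours were below 1.5-fold in that pair, with 0.15 and 0.04 FPKM for IFIT2, 0.52 and 0.40 FPKM for IFIT3 and 6.60 and 5.83 FPKM for IFIT5, with malin and empty vector. The plain ratio for IFIT2 was 3.75 (95% exact binomial interval 0.469 to 198.3), from an estimated 5 fragments and 1 fragment. IFI27 was listed at 0 with malin and at 0.51 FPKM with empty vector in A549, at 0.89 and 0.33 FPKM in H1299, and at 0.72 and 0.63 FPKM in the H2030-labelled pair. With all 17537 protein-coding genes and no filter, 0.656% were lower by 1.5-fold in A549 and 3.47% were higher and 6.28% lower in the H2030-labelled pair.

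Counting intervals could be had for 23 members whose tables list 1 transcript of known length, in 59 pairs of values that were both above 0. Of these, 53 intervals of the plain ratio held 1. The others, besides TRIM21 and IRF8, were DDX58 in A549 at 1.63 (interval 1.22 to 2.17), IFIT2 in A549 at 0.43 (interval 0.21 to 0.83) and MB21D1 in the H2030-labelled pair at 0.14 (interval 0.016 to 0.70). The last rests on an estimated 2 fragments with malin and 11 with empty vector. Such intervals were not made for genes outside the list, so no share over all genes stands beside these counts. As they leave out variation between cultures, an interval without 1 does not show a difference due to malin.

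The rest of the pathway was read from 5 further lists. Of the listed interferon genes only IFNB1 and IFNE had an entry in the deposited tables. IFNA1, IFNA2, IFNG, IFNK, IFNL1, IFNL2 and IFNL3 had none and could not be read. IFNB1 was at 0.14 FPKM in the H1299 malin library and listed at 0 in the other 5. IFNE, a type I interferon of epithelia, reached 1.03 and 0.91 FPKM in A549 and 1.09 and 0.68 FPKM in H1299 with malin and empty vector, and at most 0.17 FPKM in the H2030-labelled pair. Receptors and kinases were present in every line, and all 10 passed the filter. IFNGR1, a chain of the interferon gamma receptor, was at 27.8 and 33.4, 20 and 20.02, and 21.1 and 31.1 FPKM in A549, H1299 and the H2030-labelled pair, with malin and empty vector. The type I receptor chain IFNAR2 was at 13.5 and 12.5 FPKM in A549, 10.6 and 9.06 FPKM in H1299, and 11.4 and 7.98 FPKM in the H2030-labelled pair, and the other chain, IFNAR1, ranged from 10.4 to 17.7 FPKM.

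Across the 43 tested genes of these lists 0 passed for malin over empty vector and 0 had an unadjusted p under 0.05 (limma). In A549 and in H1299 0 of them reached 1.5-fold. In the H2030-labelled pair 2 were higher, TRIM25 and ZC3HAV1, and 2 were lower, HERC6 and IFI16. Each direction is 4.65% of the 43 genes, against 4.28% of all genes higher and 7.33% lower, so the counts are near or below those of all genes. TRIM25, a ubiquitin ligase of the RIG-I pathway, was at 16.9 FPKM with malin and 10.9 FPKM with empty vector there, and ZC3HAV1, which encodes the antiviral protein ZAP, at 13.4 and 7.15 FPKM. HERC6, of the ISG15 ligase family, was at 2.36 and 4.94 FPKM, and IFI16, a DNA-binding sensor, at 0.54 and 1.33 FPKM. In A549 the same genes were at 26.04 and 26.39 FPKM for TRIM25, 14.9 and 15.8 for ZC3HAV1, 3.51 and 3.48 for HERC6 and 3.04 and 2.75 for IFI16. The 8 tested sensing adaptors and kinases had a median log2 difference of -0.0093 for A549, 0.03 for H1299 and 0.39 for the H2030-labelled pair, where 7 of them had higher values with malin. No test was made of this list, and over all 12182 genes 5597 were higher in that pair, with a median of -0.03. IKBKE was at 1.55 and 0.90 FPKM, TBK1 at 11.3 and 8.17 FPKM and TICAM1 at 2.90 and 1.81 FPKM with malin and empty vector in that pair. The 19 tested genes of the other interferon-induced list had a median of -0.02 there, and the 6 tested negative regulators -0.0067.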

How the data were processed

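Gene-level FPKM tables of 6 libraries were deposited by the authors, and the unit is given per the file headers. Cutadapt, FastQC, STAR, Cufflinks and the hg38 build are listed, without versions, per the submitters' processing notes. FPKM depends on the library total, so abundant genes can shift others, and without a stated strand setting overlapping genes cannot be separated. Of 19903 genes, 19770 matched the RefSeq table of GRCh38.p14, 17537 of them protein coding. Positions are from GENCODE release 29.

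Groups followed the vector label and pairs the cell line label, with 1 library for each line and vector. A limma model (3.58.1, R 4.3.3, intensity trend) of log2(FPKM+1) held line and vector as terms and ran on 12182 protein-coding genes with a mean of at least 1 FPKM. It left 2 residual degrees of freedom, and Benjamini-Hochberg adjustment ran over all genes tested. P-values measure the spread between these libraries. Within a line malin over empty vector has no test and was counted at 1.5-fold.

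The tables carry no counts. Depth was estimated from low FPKM values of single-transcript genes, of which 78.6% to 81.4% lay within 0.2 of a whole fragment (an arbitrary step would give 40%, but this one was chosen on the same values). The 95% intervals cover counting error only. Scripts were tested on simulated data.

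The members and lists were chosen with earlier results of these data known. Values in every library are given for members past 1.5-fold in any line, with an unadjusted limma p under 0.05 for malin, or among the 3 highest of any line, and others by range. Of each other list at most 4 genes were named, by largest difference. Alternatives covered the pseudocount, filter, gene class, scaling, block, trend and each line left out.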

Additional observations from a re-analysis of the deposited data

Results flagged for a closer look

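Among the interferon genes, 4 had log2((malin FPKM + 1)/(empty vector FPKM + 1)) of at least 1.5-fold in 1 line and the opposite sign in another. Each line has 1 malin and 1 empty-vector library, so the difference between lines was not tested for any of them. The share of all genes that meet this rule was not counted. Of all 17537 protein-coding genes without a filter, 3.47% were higher and 6.28% lower by 1.5-fold in the H2030-labelled pair, and 0.656% were lower in A549. IFIT1 and IFI27 were under the filter on low values. IRF8 was at 0.68 in the H2030-labelled pair and -0.06 in A549, where its levels were 0 FPKM with malin and 0.04 FPKM with empty vector. These A549 levels stand for an estimated 0 fragments and 1 fragment. IFIT1 was at 1.28 in the H2030-labelled pair and -0.13 in A549. TRIM21 was at 0.63 in the H2030-labelled pair and -0.05 in H1299. IFI27 was at -0.59 in A549, against 0.51 in H1299 and 0.08 in the H2030-labelled pair, with at most 0.89 FPKM in any library.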

How the results depend on the processing

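Malin against empty vector gave 0 members past an adjusted p of 0.05 under every alternative run, including no replicate block (0 members) and each line left out (0 to 0). In the main fit NHLRC1 itself did not pass (limma adjusted p = 0.927), so these counts cannot show that the members were unchanged. The mean IRF7 difference stayed below 0 in all alternatives that tested it (its mean is under 5 FPKM), from -0.20 with a pseudocount of 5 to -0.60 with a pseudocount of 0.1, at limma adjusted p of 0.885 to 1. No value reversed. With a mean of at least 5 FPKM required, fewer members were tested: 9 were higher and 7 lower for A549 minus labelled H2030, 3 were lower for H1299 minus labelled H2030, and in the H2030-labelled pair the member median was 0.022, with 1 member higher and 0 lower by 1.5-fold. Without the 4 members that passed the filter through 1 line, an alternative added after seeing the data, 3 members were lower for H1299 minus labelled H2030 and the other line counts stayed within 1.5 times. Quantile normalization gave that H2030-labelled median as 0.16. A pseudocount of 0.1, which widens differences of low genes, gave 2 members higher in A549, 1 higher in H1299 and 5 lower in the H2030-labelled pair. A pseudocount of 5, which narrows them, gave 0 higher and 0 lower there. Without a filter 1 member was lower in A549. With the line outside each contrast left out, calls were 10 higher and 14 lower for A549 minus H1299, 14 and 11 for A549 minus labelled H2030, and 13 and 4 for H1299 minus labelled H2030. These calls include the 4 members that passed the filter through 1 line. Among single members, calls were lost for IFIT5, STAT2 and TRIM21 (7 values, each in the same direction). Depth limits members under 1 FPKM, where few fragments stand behind a value.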
